A study of Arabidopsis thaliana with 6 samples.

Results

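XTH genes and expansin genes, which encode wall-modifying proteins of growing plant cells, were followed in apl and wildtype Arabidopsis thaliana cotyledons that had been induced in culture to form vascular cells. A gene was included when the single symbol paired with its probe set in the platform annotation was XTH, EXPA, EXPB, EXLA, EXLB or EXP followed by a number. This gave 33 probe sets for 32 genes, out of 16542 genes that were named alone by a probe set and 38408 probe sets in all. There were 9 XTH genes, 14 EXPA genes with EXP26 counted among them, 5 EXPB genes and 4 genes of the expansin-like EXLA and EXLB groups. EXPA20 had 2 probe sets, and the one with the higher mean over the 6 arrays was used. The RefSeq gene table lists 66 genes with such a symbol, and those without a paired probe set, such as XTH17 and EXPA1, were not analysed here.

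The apl group and the wildtype group had 3 arrays each. Cotyledons came from 6-day-old seedlings grown in liquid medium under continuous light, and in both groups they were cultured for 72 h with 10 µM bikinin, 1.25 mg/L of the auxin 2,4-D and 0.25 mg/L of the cytokinin kinetin, so no array stands for uninduced tissue. The wildtype is labelled Col-0, while the mutant is labelled apl with neither its allele nor its background strain. The labels do not say whether replicates came from separate cultures, so the spread that the p-values rest on may be a technical one. APL is a MYB-type transcription factor required for phloem identity, and bikinin inhibits GSK3-type kinases and thereby activates brassinosteroid signalling. No probe set was paired with APL, so its own level was not analysed here.

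XTH proteins are xyloglucan endotransglucosylase/hydrolases. They cut xyloglucan, the hemicellulose that coats cellulose microfibrils, and either join the cut end to another chain or, in a few members, hydrolyse it. Expansins loosen the wall without cutting it, most strongly at acidic pH. The EXPA (alpha) and EXPB (beta) groups hold the proteins for which this activity is known, whereas EXLA and EXLB are related by sequence and have no established loosening activity. Both families have members that respond to auxin and brassinosteroid, and both act while cells enlarge, before or alongside the wall thickening of xylem cells.

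Values are log2 signals as deposited. A signal has no detection call, so its place within its own array is given in place of a statement on presence, and signals of single genes are not ranked against each other because probes differ in brightness. The arrays had medians of 6.05 to 6.25 and lower quartiles of 3.79 to 4.03. Arrays of 1 group correlated over all probe sets with a Pearson's r of 0.969 to 0.977, and apl with wildtype arrays with 0.949 to 0.974. The cotyledon genes RCA, which encodes Rubisco activase, and LHB1B2, which encodes a light-harvesting protein, lay between 9.78 and 10.86 in all 6 arrays, above the upper quartile. LHCB4.1 also lay above it in all arrays, between 8.68 and 9.16. LHCB4.2 lay between 6.45 and 7.41, above the median and under the upper quartile. LHCB4.3 lay between 5.91 and 6.76, above the median in 2 apl arrays and 1 wildtype array. Of the guard cell regulators, FAMA lay between 6.57 and 7.67, SPCH between 4.22 and 4.96, and MUTE between 2.07 and 2.44, under the lower quartile of each array.

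Among the XTH genes, XTH20 was higher in apl, and it was the 1 member of either family that passed the test. XTH20 is known, together with XTH19, for its induction in cut stem tissue that is rejoining, where the transcription factor ANAC071 acts upstream. Its log2 signal was 6.26, 6.95 and 7.11 in apl replicates 1, 2 and 3, against 2.81, 3.86 and 2.43 in wildtype replicates 1, 2 and 3. All 3 apl arrays lay above the median of their array, all 3 wildtype arrays lay under the lower quartile of theirs, and the groups did not overlap. The mean was 6.77 ± 0.45 in apl and 3.03 ± 0.74 in wildtype (SD, n = 3 each). XTH20 rose by 3.74 on the log2 scale (SE 0.41, 95% interval 2.77 to 4.71), or 13.4-fold in signal, with a Benjamini-Hochberg adjusted p of 0.0180 from limma over all 38408 probe sets. Because the wildtype signal could not be told from background, the fold in transcript is not known. In bulk tissue, more cells with the transcript and more transcript per cell cannot be told apart.

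The difference for XTH20 kept its direction without any 1 array, with a fold of 10.8 to 17.8. Its call rested on most of the arrays. The adjusted p (limma) was 0.0646 without apl replicate 1, 0.0523 without apl replicate 3, 0.112 without wildtype replicate 1 and 0.0562 without wildtype replicate 3, while it was 0.0344 without apl replicate 2 and 0.0387 without wildtype replicate 2.

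Markers of some cell types also differed in summed signal between the groups, although no marker was called. The 3 measured of 25 xylem markers, IRX15, IRX15-L and GUT2 (also named IRX10), all encode proteins of xylan synthesis, and their signals summed on the linear scale to 1551.5 to 4959.6 in apl arrays and 5663 to 9106 in wildtype arrays. At replicate 3 they differed by -3.54, -2.76 and -2.36 on the log2 scale, and at replicates 1 and 2 by -1.34 to -0.41. The groups overlapped for IRX15. The 5 measured of 11 phloem markers, SWEET11, CLE41, CLE44, CLE45 and OPS, summed to 6179 to 7882 in apl arrays and 3172 to 4115 in wildtype arrays. The phloem markers took both directions. SWEET11, CLE44, OPS and CLE41 differed by 2.25 (SE 0.77), 0.70 (SE 0.17), 0.55 (SE 0.36) and 0.47 (SE 0.25), while CLE45 differed by -1.32 (SE 0.58) and was lower in apl at each replicate number. Linear sums weight each gene by the brightness of its probes, so CLE44 and SWEET11 carry this one and CLE45 adds little to it. None of these 8 genes passed the test over all probe sets (limma), and 5 of them had an unadjusted p under 0.05. The 5 were 3 xylem markers with lower and 2 phloem markers with higher signal in apl. By that measure 4.66% of all probe sets were higher and 4.34% lower. The sums of the 5 measured of 25 mesophyll markers overlapped, at 3081 to 3584 in apl and 2725 to 4214 in wildtype. So did those of the 3 measured of 6 guard cell markers, at 124 to 169 in apl and 137 to 239.6 in wildtype, and of the 3 measured of 7 markers of dividing cells, at 3352 to 3999 in apl and 2897 to 3760.2 in wildtype. Their part in the difference of XTH20 was not tested.

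**Figure D1:**
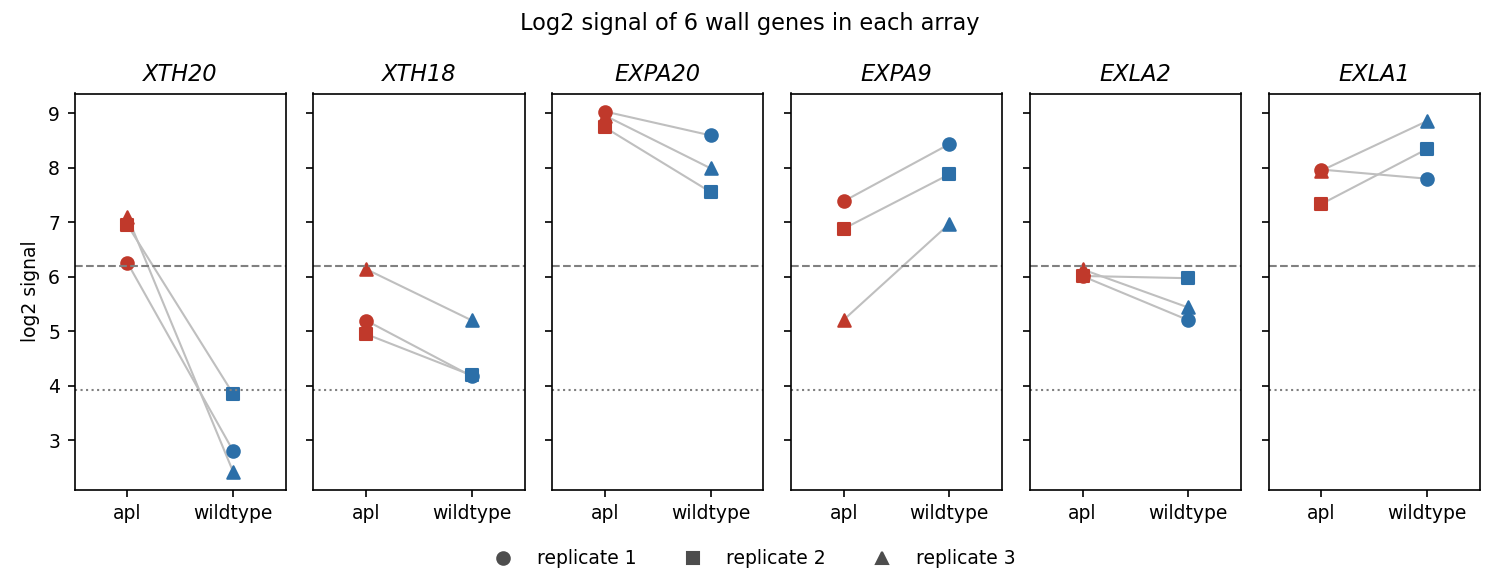
Log2 signal (vertical axis) of XTH20, XTH18, EXPA20, EXPA9, EXLA2 and EXLA1 in each apl array (left, red) and each wildtype array (right, blue). Marker shapes give the replicate number, grey lines join arrays of the same number, and the dashed and dotted lines are the mean over arrays of the array median and lower quartile. XTH20 lies above the median in apl and under the lower quartile in wildtype, and EXPA9 is lower in apl at every replicate number.

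XTH18 and XTH19 are direct neighbours on chromosome 4 and belong with XTH20 to the same small subgroup of the family, and both had higher mean signals in apl without passing the test. XTH18, known from work on root growth, had log2 signals of 5.20, 4.95 and 6.14 in apl replicates 1, 2 and 3, against 4.18, 4.19 and 5.20 in wildtype replicates 1, 2 and 3. Replicate 3 was the highest in both groups, and wildtype replicate 3 reached the level of apl replicate 1, so the groups overlapped. At equal replicate number, apl was above wildtype by 1.02, 0.76 and 0.94. The difference of the means was 0.91 (SE 0.41, 95% interval -0.06 to 1.87, limma adjusted p = 0.592), and it was 0.55 without apl replicate 3. With the replicate number as a block in the fit, the SE was 0.14 and the limma adjusted p was 0.0802. XTH19 had log2 signals of 7.83, 7.97 and 8.50 in apl and 7.25, 7.62 and 8.17 in wildtype, a difference of 0.42 (SE 0.30). Its groups overlapped too, and at equal replicate number apl was above wildtype by 0.59, 0.35 and 0.34. Whether the probes of these close relatives also bind each other's transcripts was not tested.

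The other 6 XTH genes differed by -0.20 to 0.43, and each had overlapping groups. XTH29 differed by 0.43 (SE 0.31), with apl signals of 7.08, 5.95 and 6.78 and wildtype signals of 6.09, 6.12 and 6.30. Its 2 highest apl arrays lay above all wildtype arrays, and apl replicate 2 lay below all of them. XTH33, whose protein is held at the plasma membrane, differed by 0.29 (SE 0.39), and wildtype replicate 2, at 7.03, was lower than the other 5 arrays, which lay between 8.05 and 8.58. XTH32, which is grouped with the hydrolases of the family, differed by -0.20 (SE 0.21), with an interval of -0.71 to 0.30, and lay between 7.88 and 8.42 in all arrays. XTH26, a gene of root hairs, differed by 0.23 (SE 0.21), XTH21, known from root growth, by 0.12 (SE 0.32) and XTH16 by 0.06 (SE 0.32). XTH21 lay under the lower quartile in all 6 arrays, so a difference in its transcript could be missed. The gene EXGT-A3, an XTH relative known from leaf vein development whose symbol falls outside the rule, had 9.01, 9.62 and 9.78 in apl and 9.45, 9.87 and 9.91 in wildtype, a difference of -0.27 (SE 0.26, limma adjusted p = 0.832).

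**Figure D2:**
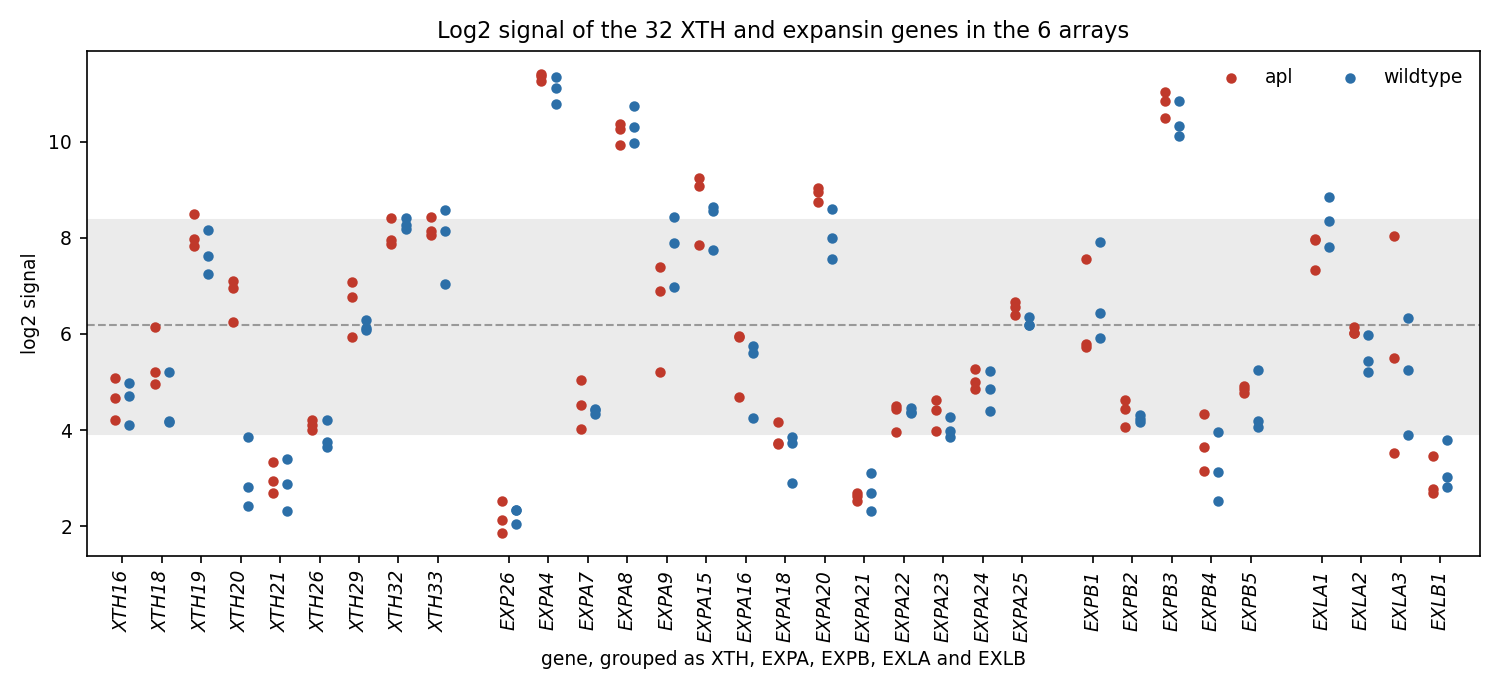
Log2 signal (vertical axis) of the 32 XTH and expansin genes, with the 3 apl arrays as red points left of the 3 wildtype arrays in blue. The grey band runs from the lower to the upper quartile of all probe sets, averaged over arrays, and the dashed line is the median. EXPA4, EXPA8 and EXPB3 lie above the band in all arrays, and XTH20 lies above the median in apl and below the band in wildtype.

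Alpha-expansins gave no call, and 9 of the 14, or 64.3%, had a mean above 0 for apl minus wildtype, against 64.0% of all probe sets. EXPA20 had the smallest unadjusted p among them in the fit without a replicate block. Its log2 signal was 9.03, 8.74 and 8.96 in apl replicates 1, 2 and 3, against 8.60, 7.56 and 7.99 in wildtype replicates 1, 2 and 3, so the groups did not overlap. The apl arrays were close together and the wildtype arrays spread over 1.04. EXPA20 differed by 0.86 (SE 0.29, 95% interval 0.19 to 1.54), with an unadjusted p of 0.0194 and an adjusted p of 0.410 (limma). Its dimmer probe set differed by 0.84 (SE 0.29), and whether both probe sets share probes was not tested.

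EXPA9 had the largest difference toward lower signal in apl among the 32 genes. It had 7.39, 6.89 and 5.21 in apl replicates 1, 2 and 3, against 8.44, 7.88 and 6.97 in wildtype replicates 1, 2 and 3. Replicate 3 was the lowest in both groups, and the groups overlapped across numbers although apl was lower at each number, with differences of -1.05, -0.997 and -1.76. The difference of the means was -1.27 (SE 0.61, 95% interval -2.71 to 0.18, limma adjusted p = 0.628), and it ranged from -1.71 when apl replicate 1 was left out to -0.63 when apl replicate 3 was left out. With the replicate number as a block in the fit, the SE was 0.21 and the limma adjusted p was 0.0890.

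EXPA4 and EXPA8 lay above the upper quartile in all arrays, with overlapping groups. EXPA4 lay at 11.41, 11.26 and 11.37 in apl and at 11.34, 10.78 and 11.12 in wildtype, a difference of 0.27 (SE 0.20, interval -0.21 to 0.75). EXPA8 lay at 9.94, 10.25 and 10.37 in apl and at 9.97, 10.30 and 10.73 in wildtype, a difference of -0.15 (SE 0.25, interval -0.74 to 0.45). For both genes the interval excluded a 2-fold difference in signal in either direction. EXPA15 differed by 0.41 (SE 0.43) and EXPA16 by 0.32 (SE 0.51), and in both genes replicate 3 was the lowest array of each group.

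EXPA7 and EXPA18, which are known as root hair genes, lay under the array median in both groups. EXPA7 lay between 4.02 and 5.04 in apl and between 4.33 and 4.43 in wildtype. EXPA18 lay between 3.70 and 4.17 in apl and between 2.89 and 3.86 in wildtype. EXPA7 differed by 0.14 (SE 0.28) and EXPA18 by 0.37 (SE 0.30).

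The 6 genes EXPA21, EXPA22, EXPA23, EXP26, EXPA25 and EXPA24 follow each other without another protein-coding gene between them on chromosome 5. Of the 6, 3 had a mean above 0 and 3 below, within -0.10 and 0.31, and all 6 intervals lay within 1 log2 unit of 0. EXPA25 had 6.56, 6.67 and 6.39 in apl and 6.35, 6.18 and 6.19 in wildtype, which did not overlap, and differed by 0.30 (SE 0.18, limma adjusted p = 0.696). EXPA21 and EXP26 lay under the lower quartile in all 6 arrays, so that little can be read from their values.

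The beta-expansins gave no call either. EXPB3 was bright in both groups, with 11.03, 10.84 and 10.49 in apl and 10.84, 10.33 and 10.11 in wildtype, a difference of 0.36 (SE 0.26, interval -0.25 to 0.97). EXPB1 varied more by replicate number than by genotype. It had 5.79, 7.57 and 5.73 in apl replicates 1, 2 and 3, against 6.43, 7.92 and 5.92 in wildtype replicates 1, 2 and 3, so replicate 2 stood highest in both groups, and the genotypes differed by -0.39 (SE 0.66). EXPB4, EXPB5 and EXPB2 had low signals and differed by 0.50 (SE 0.44), 0.35 (SE 0.33) and 0.15 (SE 0.20).

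The expansin-like genes did not share a direction. EXLA2, which has been studied in the response of Arabidopsis to fungal infection, had 6.01, 6.02 and 6.14 in apl and 5.21, 5.98 and 5.44 in wildtype. The groups did not overlap, although wildtype replicate 2 came within 0.04 of its apl counterpart, and the difference was 0.51 (SE 0.24, limma adjusted p = 0.608). EXLA1 had 7.97, 7.34 and 7.95 in apl and 7.80, 8.34 and 8.86 in wildtype, a difference of -0.58 (SE 0.32, limma adjusted p = 0.674), and the groups overlapped through wildtype replicate 1. Without wildtype replicate 3 the difference of EXLA1 was -0.32. EXLA3, the direct neighbour of EXLA1 on chromosome 3, spanned more of the scale within each group than any other member. It had 5.49, 3.51 and 8.04 in apl replicates 1, 2 and 3, against 5.24, 3.89 and 6.33 in wildtype replicates 1, 2 and 3. Replicate 3 was the highest and replicate 2 the lowest in both groups, and the genotype difference of 0.53 had an SE of 1.14. EXLB1 lay under the lower quartile in all arrays and differed by -0.24 (SE 0.33).

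**Figure D3:**
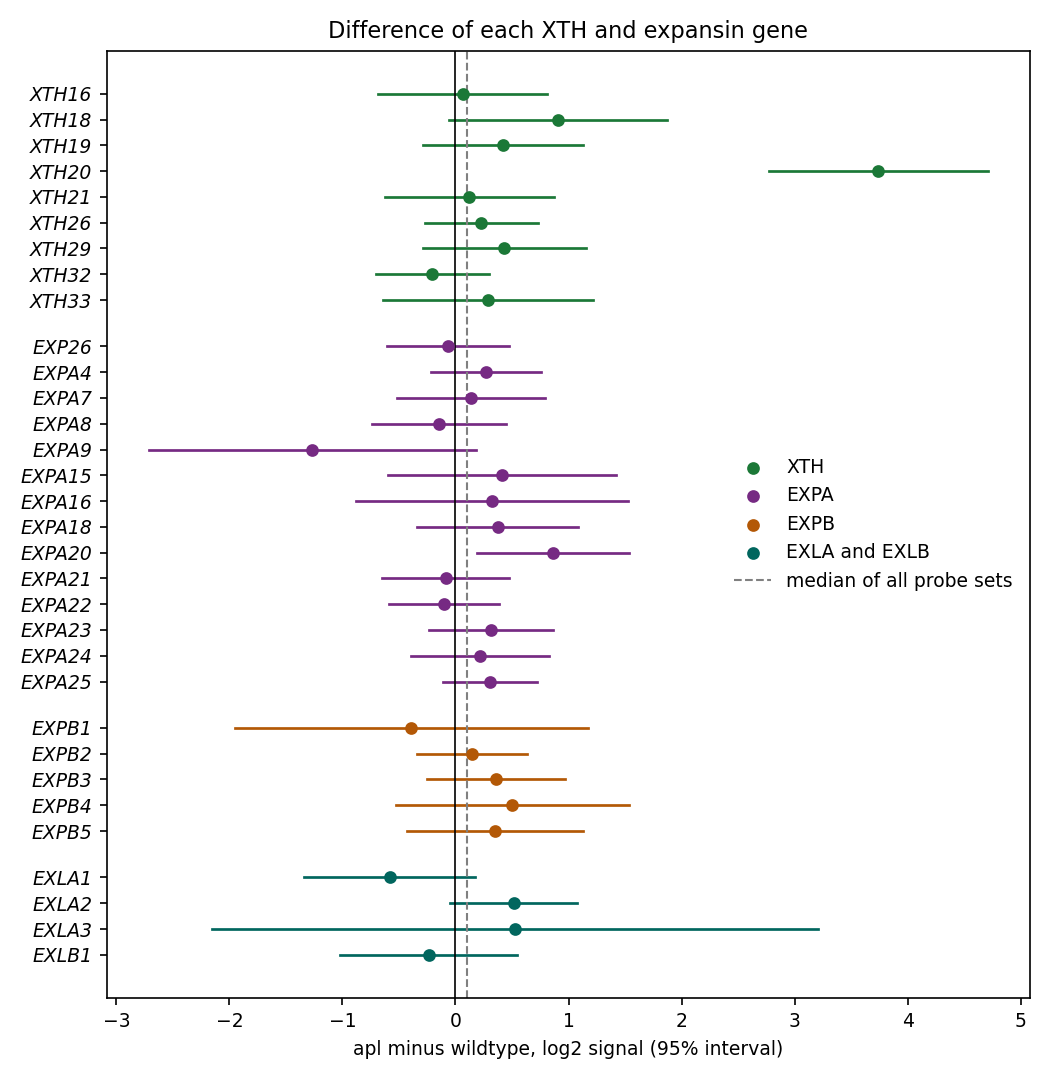
Apl minus wildtype on the log2 scale (horizontal axis) for each of the 32 genes, with 95% intervals from limma as lines, coloured by family. The dashed line is the median of all probe sets, 0.10. The interval of XTH20, 2.77 to 4.71, lies apart from those of the other XTH genes, and EXLA3, EXPB1 and EXPA9 have the widest intervals.

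Over the 32 genes, limma called 1 higher and 0 lower in apl, and 2 higher and 0 lower had an unadjusted p under 0.05. Of all probe sets, 0.0781% were called higher and 0.526% lower, and 4.66% higher and 4.34% lower had an unadjusted p under 0.05. Groups did not overlap for 4 of the 32 genes, XTH20, EXPA20, EXPA25 and EXLA2, all with higher signal in apl, which is 12.5% of the genes where 9.91% of all probe sets were higher without overlap and 5.32% lower. The 2 genes with an unadjusted p under 0.05 are 6.25% of the genes. With the replicate number as a block in the fit, an unadjusted p under 0.05 (limma) was found for 5 genes with higher signal in apl, XTH18, XTH19, XTH20, EXPA20 and EXPB4, and for 1 with lower signal, EXPA9. These are 15.6% and 3.12% of the genes, where 9.97% of all probe sets were higher and 6.61% lower by that measure. With adjustment over all probe sets, XTH20 was still the 1 call among the 32 genes in that fit. XTH18 and EXPA9 had adjusted p-values (limma) of 0.0802 and 0.0890. The median difference was 0.28 over the 32 genes and 0.10 over all probe sets, and 23 of the 32 genes, or 71.9%, had a mean above 0, against 64.0% of all probe sets. Quantile normalization brought the medians to 0.22 and 0.05 and left 23 genes above 0. By family the median was 0.29 for XTH, 0.24 for EXPA, 0.35 for EXPB and 0.14 for EXLA and EXLB.

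The arrays set different bounds on these differences. The 95% interval lay within 1 log2 unit of 0 for 15 of the 32 genes, or 46.9%, against 63.6% of all probe sets. For another 16 genes, XTH20 not counted, it included 0 or small differences and also reached a 2-fold difference in signal. These intervals come from the fit without a replicate block. With the block the SE fell for every gene but EXPA23, from 0.66 to 0.16 in EXPB1 and from 0.41 to 0.14 in XTH18. In EXPA23 the SE was 0.23 without and 0.24 with the block. The counts of intervals hold only for the fit without the block. In 5 genes, XTH21, EXP26, EXPA21, EXPB4 and EXLB1, both group means were under the lower quartile of every array.

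Many of these genes varied with replicate number. For 25 of the 32, the 3 replicate numbers, each averaged over its apl and wildtype array, ranged further apart than apl and wildtype did, and the same held for 77.0% of all probe sets. The order of the 3 replicates was the same in apl as in wildtype for 13 of the 32 genes, or 40.6%, against 33.2% of all probe sets. Across the 32 genes and 3 numbers, the deviations of apl and wildtype arrays from their group means had a Pearson's r of 0.70 over 96 points, or 0.63 without EXLA3, and it was 0.44 over all probe sets. These points share arrays and, within a gene, sum to 0 in each group, so no p is given. EXPA18 in replicate 2 and EXPA21 in replicate 1 had the same value in the apl and the wildtype array to all deposited digits, 2 of 96 comparisons or 2.08%, as did 2.20% over all probe sets. Over all probe sets, apl and wildtype arrays of replicate numbers 1, 2 and 3 had 740, 852 and 940 such identical values. Apl and wildtype arrays of different number had 0 to 2 in each pair. Whether the shared pattern lies in the cultures or in joint processing of same-numbered arrays was not tested.

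**Figure D4:**
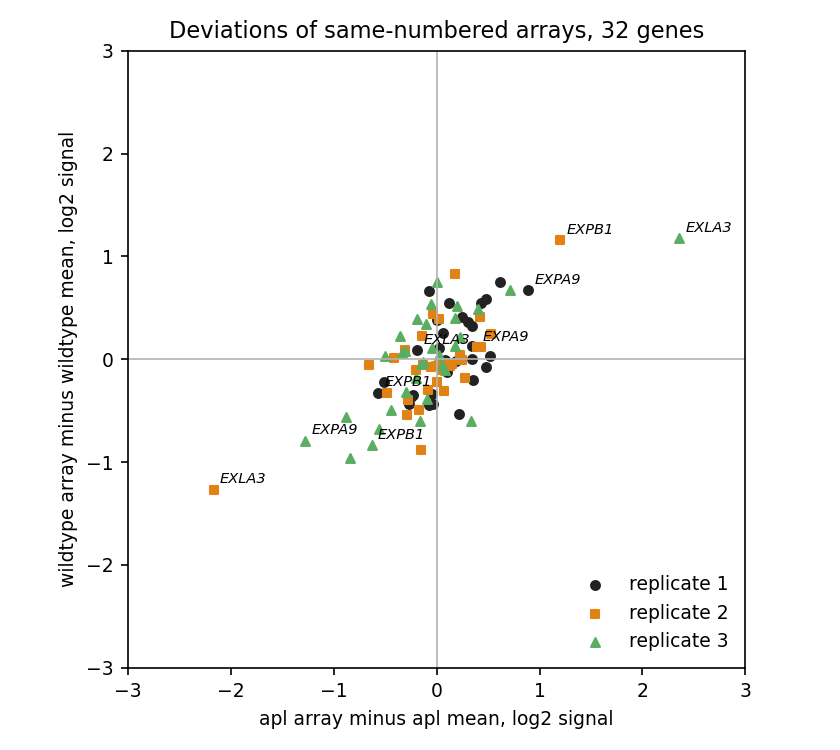
Deviation of each apl array from the apl mean (horizontal axis) against that of the wildtype array of the same replicate number from the wildtype mean (vertical axis), in log2 signal, for the 32 genes. Marker shape and colour give the replicate number. The points of EXLA3, EXPB1 and EXPA9 are labelled, and their outermost points lie on the same side of 0 in both groups.

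Other genes of wall synthesis and growth were read from lists chosen by name, of which 35 of 284 genes were measured. Limma called 0 higher and 1 lower among the 35, or 2.86% of them, and 2 higher and 3 lower had an unadjusted p under 0.05. Over all probe sets 0.0781% were called higher and 0.526% lower, and 4.66% higher and 4.34% lower had an unadjusted p under 0.05. The called gene was GH9B17, of the glycosyl hydrolase 9 family that holds the plant endoglucanases. It had 5.62, 4.68 and 5.00 in apl replicates 1, 2 and 3, against 8.78, 8.01 and 7.75 in wildtype replicates 1, 2 and 3. All apl arrays lay below all wildtype arrays, and GH9B17 fell by 3.08 on the log2 scale (SE 0.35, limma adjusted p = 0.0210), an 8.46-fold difference in signal. The adjusted p (limma) of GH9B17 was 0.0637 without apl replicate 1, 0.0624 without apl replicate 3, 0.0852 when wildtype replicate 1 was left out and 0.120 for wildtype replicate 2, and it stayed under 0.05 without either of the remaining arrays. It was the 1 call among 20 measured of 51 genes for cellulose synthesis and endoglucanases, whose median difference was -0.04. All of the 20 but COB belong to the glycosyl hydrolase 9 family, and no cellulose synthase gene (CESA) was among them. The genes with an unadjusted p under 0.05 were all of this family and took both directions.

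Genes that supply or alter xyloglucan and pectin gave no call. Of the xyloglucan list 5 of 23 genes were measured, all of the CSLC family of glucan synthases that build its backbone. CSLC04 had 11.37, 11.32 and 11.90 in apl and 10.82, 10.87 and 11.45 in wildtype, a difference of 0.48 (SE 0.26, limma adjusted p = 0.674), and CSLC12 and ATCSLC08 differed by 0.39 (SE 0.28) and 0.22 (SE 0.32). Of the pectin list 6 of 58 were measured. The pectin methylesterase genes PME61, AT4G02300 and PMEPCRF differed by -0.89 (SE 0.40), 0.39 (SE 0.21) and -0.50 (SE 0.36). PME61 lay under the lower quartile in 3 apl and 2 wildtype arrays, so that little can be read from its values. In the mannan and related glycan list CSLD2, CSLA01 and CSLA03, 3 of 24, differed by 0.06 to 0.14, and BRL1, a brassinosteroid receptor gene and the 1 measured of 37 in its list, differed by -0.09 (SE 0.22). None of the 11 proton pump genes or the 80 SAUR genes was paired with a probe set, so the auxin and acid growth genes that act with expansins were not analysed here.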

How the data were processed

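The deposited values are log2 signals from 1-colour Affymetrix arrays, made by the authors with RMA, per the submitters' processing notes, which name no version. The sources used here do not give which arrays were processed together. RMA corrects background, equalises arrays and summarises probes, and so understates differences of dim transcripts. Precision is limited by having 3 arrays per group. The deposited values of all 38408 probe sets were fitted, apl against wildtype, with limma 3.58.1 (lmFit, eBayes) in R 4.3.3, 2-sided, with Benjamini-Hochberg adjustment over all of them and calls at 0.05. Intervals are 95% intervals of that fit. Figures were drawn with matplotlib 3.10.9. The fit was tested on simulated data drawn independently for each array, so that test does not cover effects of replicate number.

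Genes were named only through the platform annotation, which paired 16722 probe sets with 1 gene, and 16574 of these matched the RefSeq table of TAIR10.1, used for names and neighbours. The genes and lists were chosen with earlier results of these data known. All 32 genes are accounted for. Values of every array were to be given at least for called genes, for genes with an unadjusted p under 0.05 and for the 2 smallest p of XTH, EXPA and the other expansins, and others were added to show a range. Of other lists, called genes or up to 3 with the smallest p are named. Protein and promoter sequences, also planned, were not used here.

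Apl and wildtype share replicate numbers. Same-numbered arrays deviated together from their group means, with correlations of 0.40 to 0.45 over all probe sets in the 3 pairs. For apl and wildtype arrays of different number they were -0.29 to -0.16. These lie under 0 partly because deviations sum to 0 within each group, so their sign is not separate evidence. By the rule set for this the numbers pair the arrays, from the data and not from the labels. Calls, SEs and intervals come from the fit without this pairing unless the replicate block is named. Alternatives were leaving out each array, a replicate block, array weights, a robust prior with variance trend, median centring, quantile normalization, thresholds of 0.01 and 0.10, leaving out dim probe sets, and averaging the probe sets of a gene.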

Additional observations from a re-analysis of the deposited data

How the results depend on the processing

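XTH20 stayed higher in apl in the 15 alternatives that tested it, by 3.44 to 4.15 on the log2 scale. The replicate block kept its call (limma adjusted p = 0.0324) and changed no other call among the 32 genes or the 35 other wall and growth genes. The count of the 32 genes called higher in apl, 1 as reported, was 0 at an adjusted p under 0.01 and 0 with probe sets under the 50th percentile left out, where 13 of the 32 were tested and XTH20 was not among them. Leaving out 1 array gave 0 to 1. The count called lower was 0 in every alternative run. The median difference of the 32 genes lay between 0.17 and 0.32. Of the other wall genes, 1 was called higher with probe sets under the 50th percentile left out, GH9B8, named after its values were seen, and the count called lower was 0 at an adjusted p under 0.01 and 0 to 1 without 1 array. EXPA20, EXPA9 and EXLA1 kept their direction and stayed uncalled in all alternatives, as did XTH18 and EXLA2 in all but the 50th percentile filter, which left both out.

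Over all probe sets, the 30 higher and 202 lower calls became 81 and 340 when the replicate block was added. A robust prior with variance trend made 98 and 314. Moving the threshold gave 2 and 35 at 0.01 and 97 and 321 at 0.10. Filtering at the 25th percentile made 61 higher calls and at the 50th 92. Without 1 array there were 1 to 22 higher calls and 20 to 308 lower ones. The cause of these moves was not tested. Without a detection call, little can be read from dim genes such as XTH21.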
